A study of Mus musculus with 63 samples.

Results

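The bone morphogenetic protein (BMP) pathway was followed through 10 genes, selected by symbol from the 24766 genes of the deposited table: the ligands *Bmp2*, *Bmp4* and *Bmp7*, the receptors *Bmpr1a* and *Bmpr2*, the target genes *Id1*, *Id2* and *Id3*, and the inhibitory SMAD genes *Smad6* and *Smad7*. They were measured by bulk RNA sequencing in 63 libraries dissected from small intestinal tumours of 2 mice on a C57BL/6 background, 1 female and 1 male. Both mice were Apchet, that is heterozygous for Apc fl/+ together with Villin-creERT2, a tamoxifen-inducible Cre of the intestinal epithelium, and R26R-Confetti, a multicolour reporter. Both had received 4 mg of tamoxifen intraperitoneally after 8 weeks of age and, 10 days later, the mutagen *N*-ethyl-*N*-nitrosourea (ENU) at 200 mg/kg, so no untreated tissue was compared. Of tumours with more than 1 Confetti outcome, 20 were divided (10 per mouse), and the clone that the study classed as major and the one it classed as minor were sequenced apart. Another 23 libraries (female 10, male 13) came from undivided tumours, whereas the design text counts 20 monoclonal tumours; all 23 were used. With 1 mouse of each sex, mouse and sex cannot be told apart, and the tumours of a mouse are replicates within that animal only. Libraries were labelled by segment as SI10, SI20 or SI30, of which SI30 held 2 divided tumours of the female mouse and no undivided tumour.

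BMP ligands bind a complex of type I and type II receptors on the cell surface, which phosphorylates SMAD proteins that enter the nucleus and switch on genes such as the *Id* family. In the small intestine BMP activity is known to be low at the crypt base and high towards the villus, where it limits stem cell renewal and favours differentiation. The pathway limits itself through SMAD6 and SMAD7, and secreted antagonists such as gremlin hold the ligands away from their receptors.

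All 10 genes were detected in every library, and all 10 passed the filter of a mean normalised count of at least 10. Divided by the summed length of their annotated exons, the mean levels over the 63 libraries were highest for *Id1*, at 2342 ± 528 normalised counts per kb (SD), and *Id3*, at 1980 ± 453. *Id2* followed at 455 ± 111, *Bmpr1a* at 348 ± 64.6, *Bmp7* at 200.4 ± 76.1, *Smad7* at 179.8 ± 40.9, *Smad6* at 162 ± 46.8, *Bmpr2* at 134 ± 36.3, *Bmp2* at 97.4 ± 41.8 and *Bmp4* at 44.3 ± 29.7 per kb. Neighbours in this order lay within 1 SD of each other, except *Id3* and *Id2*, *Bmpr1a* and *Bmp7*, and *Bmp2* and *Bmp4*. The *Id* genes were listed at a higher level per length than the ligands, and *Bmp4* had both the lowest level and the widest spread. Normalised counts of *Bmp4* ranged from 29.9 to 861, a factor of 28.8, against a factor of 2.36 for *Bmpr1a*, which varied least. Within a class and mouse the SD of the log2 level was 0.96 for *Bmp4*, 0.65 for *Bmp2*, 0.49 for *Bmp7* and 0.23 for *Bmpr1a*, beside a median of 0.42 over 16489 genes.

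Sequence motifs known for SMAD binding are shown here because the *Id* genes are the pathway's direct targets. RefSeq start windows (build GRCm38.p6) were given for 6 of the 10 genes, *Bmp4*, *Bmpr1a*, *Bmpr2*, *Id2*, *Id3* and *Smad6*. Each site below was read from the 250 bases before the RefSeq start, matched exactly to GRCm39, and lies in an annotated exon of its own gene (Gencode M39). GGCGCC, which reads the same on both strands, stood in 3 of the 6 windows, beside 9.59% of 32841 windows of the same length. CAGAC, or GTCTG on the other strand, stood in 1 of 6, beside 42.2%. CANNTG, the E-box, stood in 2 of 6 windows, beside 66.2%, and GGCGCC followed after any 5 bases by GTCT, on either strand, stood in none of the 6, beside 0.0700%. No overlap between motifs was excluded in these counts. Capitals mark GGCGCC in the first 3 lines, and CAGAC or GTCTG in the other two.
*Id2*, chr12:25146305-25146334, minus strand: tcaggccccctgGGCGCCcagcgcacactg
*Bmpr1a*, chr14:34224684-34224713, minus strand: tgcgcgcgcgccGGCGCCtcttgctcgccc
*Bmpr2*, chr1:59803321-59803350, plus strand: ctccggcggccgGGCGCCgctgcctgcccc
*Id3*, chr4:135870954-135870983, plus strand: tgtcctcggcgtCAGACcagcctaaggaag
*Id3*, chr4:135871053-135871082, plus strand: ggacccttggcgGTCTGttttgaataaggg
The sites are a description of letters, and binding was not measured. Exons of genes on the other strand overlap the *Bmpr2* site (*B430105G09Rik*) and the first *Id3* site (*Gm57159*), and whether reads were counted by strand is not given in the sources used here.

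The first question was whether the major and the minor clone of a tumour differed in BMP pathway expression. None of the 10 genes passed the test (limma with the tumour as a block, Benjamini-Hochberg adjusted over 16428 genes), while 188 of all genes, or 1.14%, did. At an unadjusted P under 0.05 stood 1 of the 10 genes, *Smad7*, and 3680, or 22.4%, of all genes. The median log2 difference, major minus minor, was -0.05 over the 10 genes and 0.01 over all genes tested. Each class overlapped the other in every gene, as the plot of levels by class shows.

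**Figure D1:**
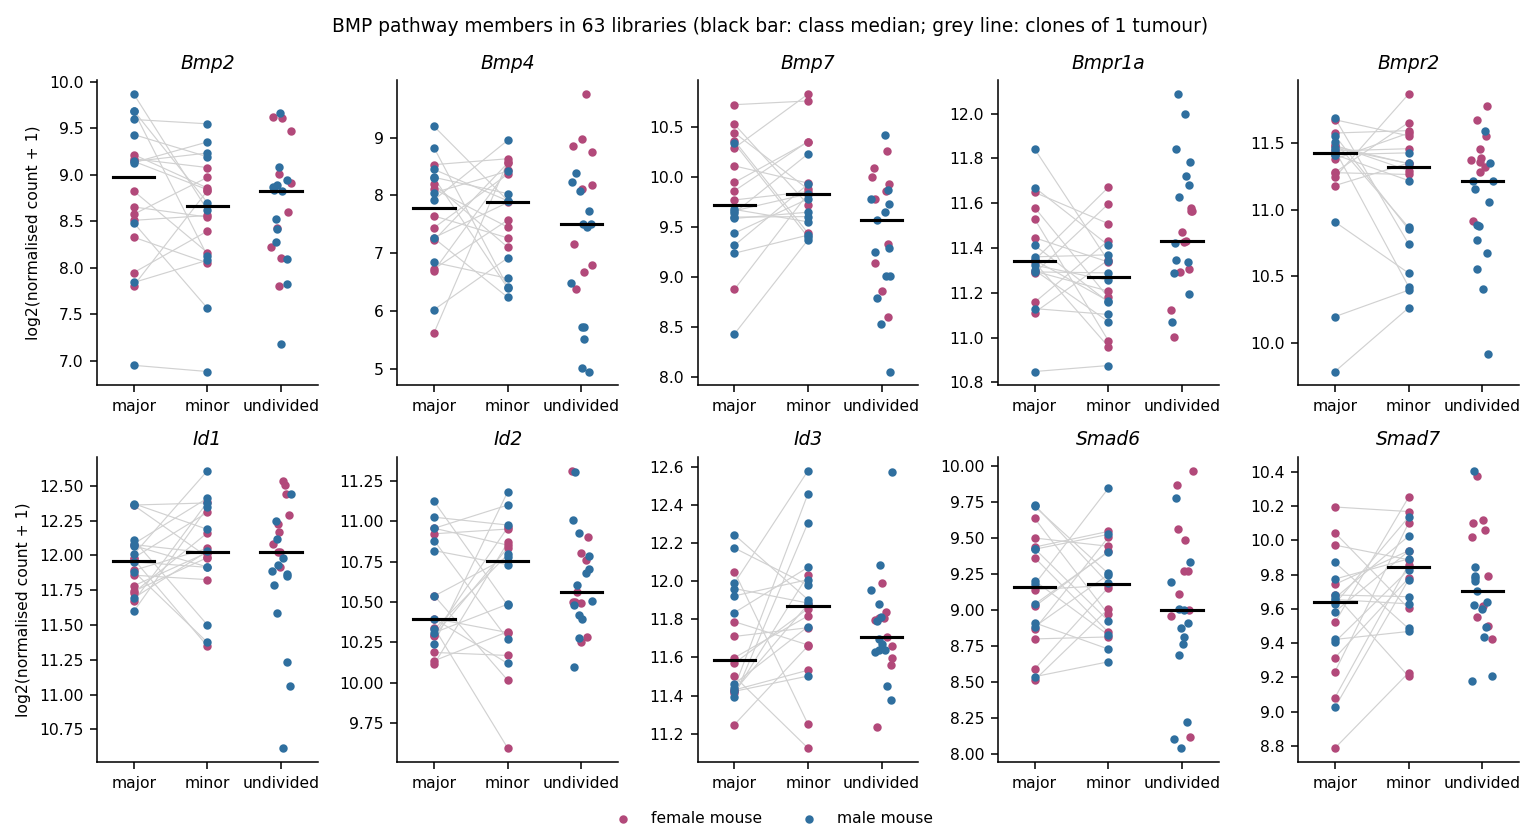
Expression of the 10 BMP pathway genes, with log2(normalised count + 1) on the vertical axis and the class of library on the horizontal axis. Each point is 1 library (female mouse in pink, male mouse in blue), grey lines join the 2 clones of a tumour and black bars are class medians. Classes overlapped in all 10 genes, and *Bmp4* was the most scattered.

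*Smad7* encodes an inhibitory SMAD that blocks the receptors of both the BMP and the TGFβ branch, and it had the smallest P among the 10. In major clones its normalised count ran from 440 over a median of 798 to 1171. In minor clones it ran from 589 over a median of 917 to 1218. The minor clone held more *Smad7* in 13 of 20 tumours, in 6 of 10 of the female and 7 of 10 of the male mouse. The log2 difference was -0.23 ± 0.09 (SE; 95% interval -0.41 to -0.05), which did not pass after adjustment (adjusted P = 0.130, limma). A sign-flipping permutation test of *Smad7* alone gave a two-sided P of 0.0235, not adjusted for the 10 genes so tested, and the other 9 gave P from 0.0955 to 0.868. Within mice the difference was -0.24 ± 0.14 in the female and -0.21 ± 0.10 in the male mouse. *Smad6*, whose product acts mainly on the BMP branch, ran from 365 over 572 to 849 in major and from 398 over 579 to 919 in minor clones, with a log2 difference of -0.03 ± 0.09 (95% interval -0.22 to 0.17).

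The *Id* genes encode inhibitors of basic helix-loop-helix transcription factors and are widely used as readouts of BMP signalling. *Id1* ran from 3100 over a median of 3991 to 5301 in major clones and from 2606 over 4168 to 6247 in minor clones. *Id2* ran from 1107 over 1347 to 2228 in major and from 773 over 1727 to 2322 in minor clones. *Id3* ran from 2430.2 over 3068.5 to 4846 in major and from 2232 over 3735 to 6114 in minor clones. Minor clones spanned the wider range in each of the 3 genes. The log2 differences were -0.08 ± 0.09 for *Id1*, -0.05 ± 0.10 for *Id2* and -0.17 ± 0.09 for *Id3*. Their 95% intervals ran from -0.26 to 0.10, from -0.26 to 0.16 and from -0.36 to 0.02. For *Id3* the minor clone was the higher one in 14 of 20 tumours, and the adjusted P was 0.277 (limma).

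Among the ligands, *Bmp2*, which in this tissue is made by both epithelium and stroma, ran from 123 over a median of 506 to 933 in major clones and from 117 over 404 to 748 in minor clones. It was higher in the major clone in 13 of 20 tumours, with a log2 difference of 0.22 ± 0.13 (95% interval -0.05 to 0.49). *Bmp4*, chiefly a product of stromal cells beneath the epithelium, ran from 48.2 over 220.1 to 584 in major and from 74.3 over 236 to 494 in minor clones. It was higher in the major clone in 10 of 20 tumours, and single tumours differed by between -2.96 and 2.41 on the log2 scale. The mean *Bmp4* difference of -0.05 ± 0.27 thus had a 95% interval of -0.60 to 0.51, the widest among the 10 genes. *Bmp7* ran from 344 over 844 to 1684 in major and from 661 over 909 to 1811 in minor clones, with a log2 difference of -0.09 ± 0.12 and a lower value in the major clone in 14 of 20 tumours.

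*Bmpr1a* encodes the main type I BMP receptor of the intestine and *Bmpr2* its type II partner. *Bmpr1a* ran from 1842 over 2593 to 3671 in major and from 1877 over 2472 to 3259 in minor clones, a log2 difference of 0.10 ± 0.06 with a 95% interval of -0.02 to 0.22, the narrowest of the 10. *Bmpr2* ran from 881 over 2758 to 3306 in major and from 1228 over 2559 to 3745 in minor clones, with a log2 difference of 0.12 ± 0.09. Both receptors were higher in the major clone in over 10 tumours, *Bmpr1a* in 14 and *Bmpr2* in 11 of 20.

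The mice were then compared in their clone differences. No gene passed the test of the difference between mice among 16428 tested (0%; limma, 1257 at an unadjusted P under 0.05), and 2 of the 10 genes stood under an unadjusted 0.05. *Bmp4* had a log2 difference, major minus minor, of -0.64 ± 0.33 in the female mouse and 0.54 ± 0.31 in the male mouse, 3 and 7 of 10 tumours being higher in the major clone. The male minus female contrast of *Bmp4* was 1.18 ± 0.49 (adjusted P = 0.633). *Bmpr2* had -0.09 ± 0.08 in the female and 0.33 ± 0.14 in the male mouse, a contrast of 0.43 ± 0.17 (adjusted P = 0.633). *Bmp2* had -0.01 ± 0.15 and 0.45 ± 0.19. All 9 fibroblast and all 9 endothelial marker genes had positive estimates in the same contrast, with medians of 0.95 and 0.58, and their part in the values of *Bmp4*, *Bmp2* and *Bmpr2* was not tested. In bulk tissue, fewer cells of a type and less RNA per cell cannot be told apart.

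**Figure D2:**
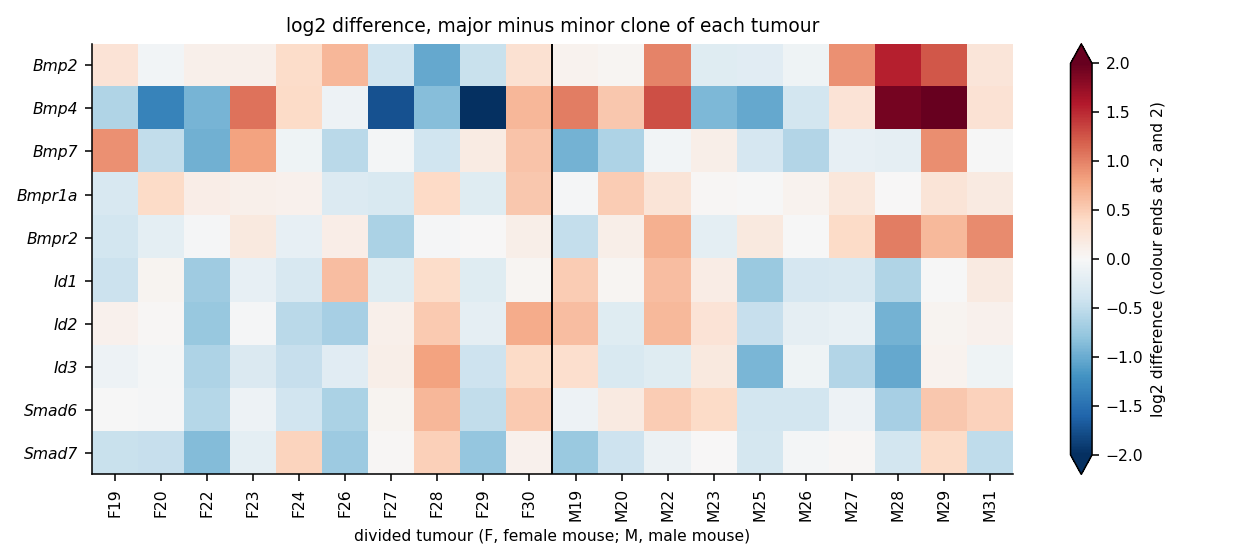
Difference between the major and the minor clone in each divided tumour, on the log2 scale (red, higher in the major clone; blue, higher in the minor clone), for the 10 genes (rows) and 20 tumours (columns, female mouse left of the line). *Bmp4* spans -2.96 to 2.41, and the rows of *Id2*, *Id3* and *Smad6* share much of their pattern.

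The clone differences of the target genes went together from tumour to tumour; these correlations were computed after the data were seen. Over 20 tumours, centred on each mouse, the clone differences of *Id2* and *Id3* correlated with r = 0.83 (Spearman's rho 0.82), those of *Id2* and *Smad6* with r = 0.82 (rho 0.81) and those of *Id3* and *Smad6* with r = 0.77 (rho 0.74). Without the 2 tumours farthest from the median of the first gene, r was 0.78, 0.74 and 0.64. Within the female mouse these values were 0.85, 0.94 and 0.92, and within the male mouse 0.80, 0.69 and 0.62. *Id2*, *Id3* and *Smad6* were all higher in the major clone in 5 tumours and all lower in 9 of 20. *Id1* went with *Id3* at r = 0.67 (rho 0.64) and with *Id2* at 0.60 (rho 0.58), the latter differing between mice, at 0.26 in the female and 0.91 in the male mouse.

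The individual tumours named next lay at the ends of the range and are not typical. Tumour 28 of the male mouse had the lowest clone difference, major minus minor, of *Id2*, *Id3* and *Smad6* and the highest of *Bmp2*. Tumour 28 of the female mouse had the highest of *Id3* and *Smad6* and the lowest of *Bmp2*. In tumour 28 of the male mouse the minor clone held 2322 normalised counts of *Id2*, 5624 of *Id3*, 919 of *Smad6* and 6247 of *Id1*, against 1210, 2779, 579 and 4118 in the major clone. In tumour 28 of the female mouse the order was the opposite: the major clone held 1488 of *Id2*, 4239 of *Id3* and 796 of *Smad6*, against 1034, 2434 and 501 in the minor clone. *Bmp2* went against *Id2* and *Id3* in both tumours, at 822 in the major and 279 in the minor clone of the male tumour and at 223 and 454 in the female tumour. Over all 20 tumours the clone differences of *Bmp2* and *Id3* correlated at r = -0.42 (rho -0.33), which fell to -0.07 without the 2 farthest tumours and so rests on those. For *Bmp2* and *Id2* r was -0.32 (-0.008 without the 2 farthest tumours), and for *Bmp2* and *Id1* it was -0.06.

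*Bmp2*, *Bmp4* and *Bmpr2* also went together. Clone differences of *Bmp2* and *Bmp4* correlated at r = 0.70 (rho 0.73; 0.56 in the female and 0.84 in the male mouse), and those of *Bmp2* and *Bmpr2* at r = 0.58 (rho 0.61; 0.21 and 0.73). Between *Bmp4* and the *Id* genes the clone differences had r of 0.20 for *Id1*, 0.05 for *Id2* and 0.05 for *Id3*. *Bmp7* and *Bmpr1a* went less closely with these genes. The clone differences of *Bmp7* had r = 0.32 with *Bmp2*, 0.34 with *Bmp4*, 0.29 with *Bmpr2* (-0.03 in the female and 0.53 in the male mouse) and 0.41 with *Smad6*. Those of *Bmpr1a* had -0.03 with *Bmp2*, 0.33 with *Bmp4*, 0.27 with *Bmpr2* and 0.54 with *Smad6*. In levels within major clones, *Bmpr1a* had r = 0.61 with *Bmp2* and 0.70 with *Bmpr2*. Within minor clones these were 0.30 and 0.41, and within undivided tumours 0.04 and -0.007. Over the 63 libraries centred on class and mouse, r was 0.68 for *Bmp2* and *Bmpr2*, 0.60 for *Bmp2* and *Bmp4*, 0.64 for *Smad6* and *Smad7*, 0.60 for *Id2* and *Id3*, and 0.48 for *Id1* and *Id3*. Other pairs came near these values, with 0.58 for *Bmp4* and *Bmpr2*, 0.56 for *Id2* and *Smad6*, and 0.49 for *Id3* and *Smad6*. Lower pairs included *Bmp4* and *Smad6* at 0.45 (0.72 within undivided tumours), *Bmp4* and *Smad7* at 0.44, and *Bmp7* and *Smad6* at 0.41. *Id1* and *Id2* had 0.26. These are descriptions without tests: the genes of a library share its RNA, dissection and scaling, and the libraries of a tumour share the tumour.

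**Figure D3:**
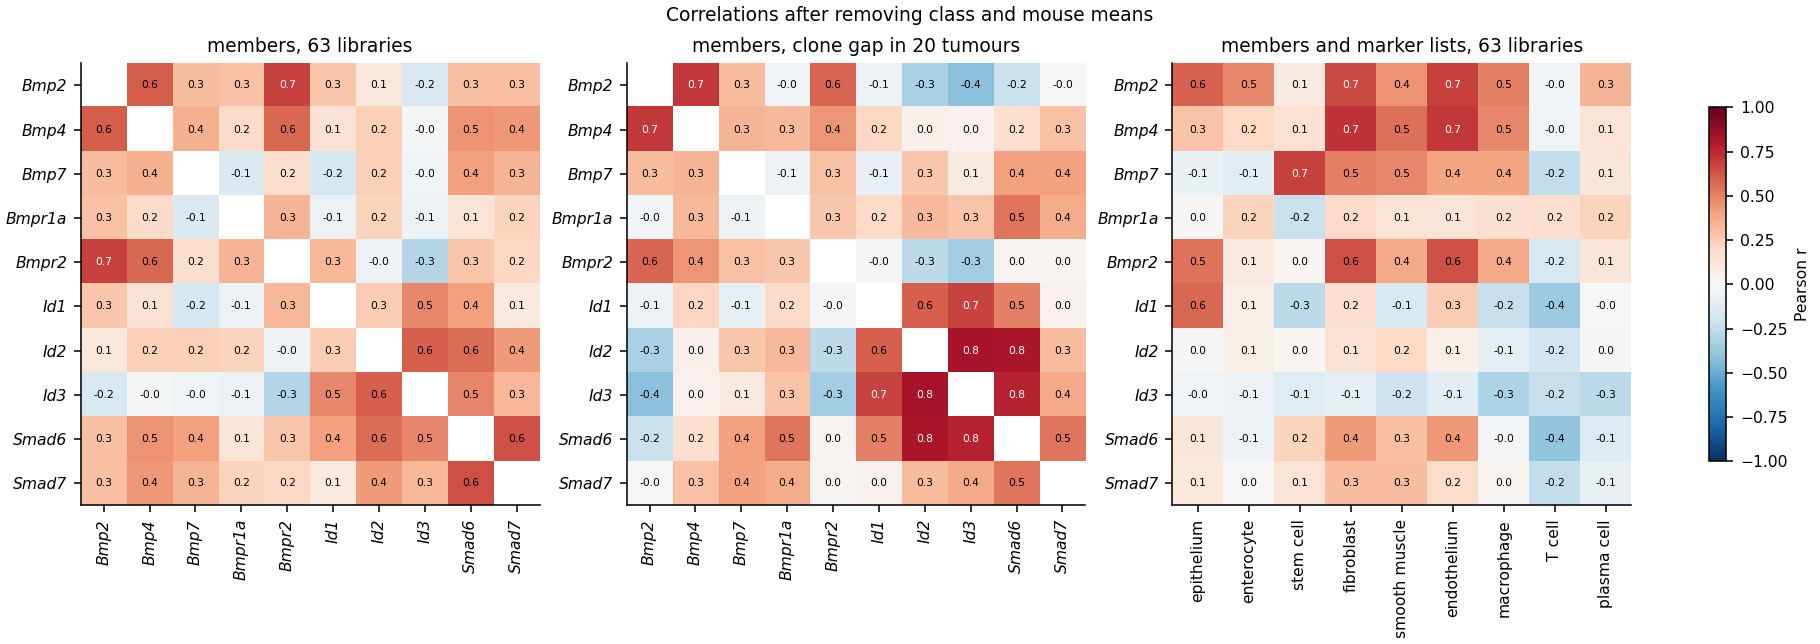
Pearson correlations after removal of class and mouse means: between the 10 genes over 63 libraries (left), between their clone differences over 20 tumours (middle), and between the genes and the mean log2 level of 9 marker lists over 63 libraries (right). *Id2*, *Id3* and *Smad6* reach 0.77 to 0.83 in the middle panel, and *Bmp4* reaches 0.72 with fibroblast markers in the right one.

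How far the level of a gene belonged to the whole tumour was read from the correlation between its major and minor clone over 20 tumours. It was 0.67 for *Bmp2* and 0.56 for *Bmpr2*, which lay at the 94.9th and 87.0th percentile of all genes, whose median was 0.25. Both values leaned on tumour 19 of the male mouse, without which they were 0.43 and 0.41. It was 0.30 for *Bmpr1a*, 0.28 for *Smad6*, 0.22 for *Smad7*, 0.18 for *Bmp7*, 0.15 for *Id2* and 0.07 for *Bmp4*. It was -0.02 for *Id1* and -0.12 for *Id3*, the latter at the 9.49th percentile. Without single tumours *Bmpr1a* and *Smad6* reached down to 0.10 and 0.13 (tumour 19 of the male mouse), *Smad7* to -0.04 (tumour 19 of the female mouse), and the remaining 5 genes stayed between -0.30 and 0.29.

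Markers of other cell types were set beside the 10 genes, since each library held stroma as well as epithelium. No marker of the 9 lists was at 0 throughout a class, and the defining epithelial genes were high throughout, the 7 epithelial markers summing to between 162632 and 629041 normalised counts. The 9 fibroblast markers had sums of 1718 to 25195 in the major class, of 1457 to 22744 in the minor class and of 644 to 15413 without division. *Bmp4* correlated at r = 0.72 with fibroblast and 0.70 with endothelial markers, *Bmp2* at 0.66 and 0.69, and *Bmpr2* at 0.65 and 0.65. With epithelial markers *Bmp2* had r = 0.59, *Bmpr2* 0.54 and *Bmp4* 0.28, and *Bmp2* had 0.48 with enterocyte markers. *Bmp7* had r = 0.69 with crypt stem cell markers, 0.50 with fibroblast, 0.48 with smooth muscle and 0.39 with endothelial markers. In the clone differences its r was 0.08 with stem cell, 0.41 with fibroblast, 0.33 with smooth muscle and 0.44 with endothelial markers. There it was -0.59 with enterocyte, -0.57 with T cell and -0.49 with epithelial markers. *Id1* had r = 0.58 with epithelial markers, although 0.06 within major clones. *Id2* and *Id3* lay between -0.12 and 0.15 for epithelial, stem cell, fibroblast and endothelial markers. Farther from 0, *Id3* had -0.32 with macrophage, -0.27 with plasma cell, -0.23 with T cell and -0.20 with smooth muscle markers. *Id2* had 0.20 with smooth muscle, -0.19 with T cell and -0.10 with macrophage markers. *Rn18s*, a ribosomal RNA gene, took a median share of 1.24% (major), 6.19% (minor) and 3.11% (undivided) of all normalised counts, and correlated with *Bmpr2* at -0.55, *Bmp4* at -0.53, *Bmp2* and *Smad6* at -0.51, and *Id3* at -0.05. The log2 sum of each library was also taken, over genes with a mean of at least 10. It correlated with *Smad6* at -0.59, *Bmp7* at -0.50 and *Smad7* at -0.40, and lay between -0.26 and 0.26 for the other members. The part of these markers, of *Rn18s* and of the library sum in the values of the 10 genes was not tested.

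The 3 genes most like each member over the 63 libraries were taken by Pearson's r on the same centred scale. Nearest to *Bmp2* were *Ptgs2*, the inducible cyclooxygenase (0.85), *Dio2*, a deiodinase that activates thyroid hormone (0.85), and the cytokine gene *Il11* (0.81). *Bmp4* was nearest to *Pdgfrb*, a receptor of pericytes and fibroblasts (0.78), the ligand gene *Bmp5* (0.77) and the mesenchymal transcription factor gene *Foxf2* (0.77). *Bmp7* was nearest to *Dennd5a* (0.81), *Lgr5*, the crypt stem cell receptor (0.81), and *Gpld1* (0.79). With only 3 genes taken for each from 16489, sets without overlap do not show that the ligands differ, and *Bmp2* and *Bmp4* themselves had r = 0.60. Among the genes nearest to *Bmpr2* were *Usp9x* (0.89) and *Purb* (0.89), whose summed exons span 16421 and 8319 bases, as against 18066 for *Bmpr2* and a median of 5464 over all genes. *Bmpr1a* was nearest to *Tmem65* (0.75), *Cmtm4* (0.71) and *Marchf7* (0.68).

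Among the targets, *Id1* was nearest to *Rhob*, a small GTPase gene (0.83), *Rnf183* (0.76) and *Serpinb5*, the maspin gene (0.76). The likeness differed by class, r with *Rnf183* being 0.33 within major clones, 0.68 within minor clones and 0.89 within undivided tumours. *Id2* was nearest to *Snhg18* (0.64), *Msi2*, an RNA-binding protein gene (0.63), and *Klc2* (0.62), and *Id3* to *Fam174a* (0.63), *Srp14* (0.63) and *Mettl7a1* (0.61). Among the genes nearest to *Smad6* were *Znrf3*, an antagonist of WNT receptors (0.75), and *Trim2* (0.74), and *Smad7* was nearest to *Smad6* (0.64), *Wwc2* (0.62) and *Dlx3* (0.61).

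Undivided tumours were next compared with the clones of divided tumours, with the mouse as a covariate. The 23 undivided tumours are the same in both comparisons, which are therefore not independent. Against major clones none of the 10 genes passed, beside 2 of 16510 genes (0.0121%), and 1 of the 10 stood at an unadjusted P under 0.05 beside 1973 of all genes. Against minor clones none passed, beside 610 of 16491 genes (3.7%), and 2 of the 10 stood under an unadjusted 0.05 beside 3226. Fitted without a trend, limma also called 0 of the 10 in both, and in the female mouse alone it called 0 of all genes against minor clones, as against 757 in the male mouse alone.

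*Bmp7* was the member with the largest estimate. Its normalised count in undivided tumours ran from 266 over a median of 759 to 1366, below the medians of 844 in major and 909 in minor clones, with overlap of all classes. The log2 difference, undivided minus clone, was -0.34 ± 0.17 for major clones (95% interval -0.67 to -0.00; adjusted P = 0.414, limma) and -0.44 ± 0.15 for minor clones (-0.74 to -0.13; adjusted P = 0.0868). Separately by mouse, the *Bmp7* difference from minor clones was -0.51 ± 0.22 (female) and -0.37 ± 0.20 (male). Leaving out undivided tumour 7 of the male mouse brought this *Bmp7* difference to -0.49 and past the threshold (adjusted P = 0.0433), which no other single library did. Against major clones all 9 fibroblast and all 9 endothelial markers also had negative estimates (medians -0.79 and -0.51, with 6 and 2 at an unadjusted P under 0.05 and none passing). Against minor clones the medians were -0.16 and -0.45, with 2 of 9 positive in each list and 2 endothelial markers passing as lower. Stem cell markers had medians of -0.35 against major and -0.04 against minor clones. The part of these markers in the *Bmp7* values was not tested.

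*Bmpr1a* ran from 2052 over 2760.5 to 4350.4 in undivided tumours, with a log2 difference of 0.12 ± 0.08 from major and 0.22 ± 0.08 from minor clones (adjusted P = 0.534 and 0.0964, limma). The difference from minor clones was 0.05 ± 0.10 in the female and 0.37 ± 0.11 in the male mouse. *Bmpr2* ran from 964 over 2385 to 3511, with differences of -0.12 ± 0.13 and 0.01 ± 0.10. Both intervals against major clones held 0.

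For the other members the intervals of both differences held 0. *Id1* ran from 1567 over 4159 to 5921, *Id2* from 1093 over 1512 to 2542 and *Id3* from 2407 over 3347 to 6096 in undivided tumours. Their log2 differences were 0.00 ± 0.11, 0.09 ± 0.10 and 0.06 ± 0.08 from major clones and -0.07 ± 0.12, 0.04 ± 0.11 and -0.12 ± 0.09 from minor clones. The 95% intervals of these 6 differences lay between -0.32 and 0.28. *Smad7* had 0.18 ± 0.10 and -0.04 ± 0.09, *Smad6* -0.12 ± 0.14 and -0.14 ± 0.13, *Bmp2* -0.14 ± 0.21 and 0.09 ± 0.19, and *Bmp4* -0.31 ± 0.34 and -0.32 ± 0.31. *Bmp4* was again the least precise, its intervals reaching 0.69 and 0.63 to either side of the estimate. Separately by mouse, *Id1* differed from major clones by 0.31 ± 0.10 in the female and -0.27 ± 0.17 in the male mouse (adjusted P = 0.291 and 0.469, limma). For *Bmp4* these values were 0.62 ± 0.42 and -1.13 ± 0.45 (adjusted P = 0.657 and 0.300, limma). The pooled estimates of both genes thus average opposite signs, and this contrast between mice was not tested.

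**Figure D4:**
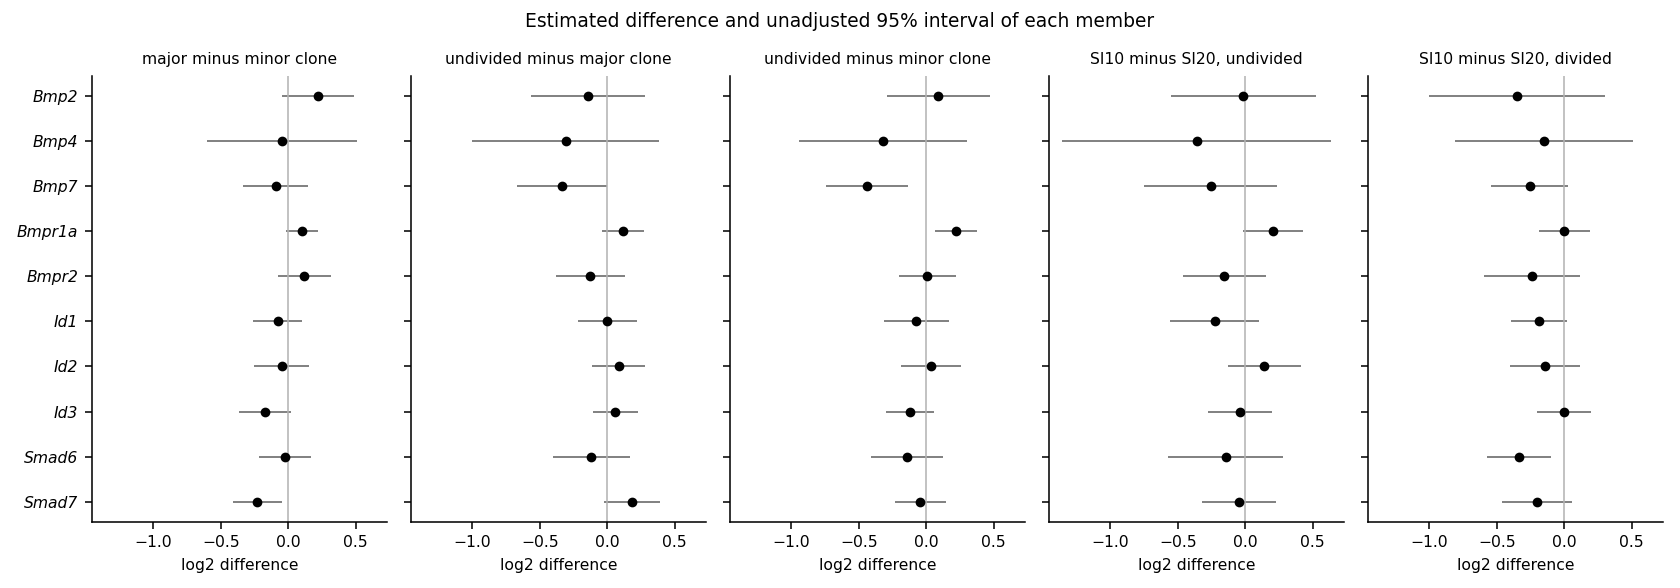
Log2 difference of each of the 10 genes (points) with its unadjusted 95% interval (bars) in 5 comparisons, all on 1 scale. The intervals are widest for *Bmp4* and narrowest for *Bmpr1a*, and those that leave out 0 belong to *Smad7*, *Bmp7*, *Bmpr1a* and *Smad6*.

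Segments of the small intestine were compared as SI10 against SI20. In undivided tumours, 12 from SI10 and 11 from SI20, none of the 10 genes passed and none stood under an unadjusted 0.05, while 28 of 16511 genes (0.17%) passed and 1258 stood under it (limma). *Bmpr1a* had the smallest P of the 10, with a log2 difference of 0.20 ± 0.11 (adjusted P = 0.679), and ran from 2052 over 3045 to 4350.4 in SI10 and from 2146 over 2747 to 3279 in SI20. In divided tumours, 7 from SI10 and 10 from SI20 with the clones averaged and without the 1 tumour whose clones carried different segment labels, none of the 10 passed and 1 stood under an unadjusted 0.05, while 46 of 16436 genes (0.28%) passed and 2358 stood under it. That gene was *Smad6*, with a log2 difference of -0.33 ± 0.11 (95% interval -0.57 to -0.10; adjusted P = 0.239). In the minor clones of these tumours *Smad6* ran from 398 over 453 to 747 in SI10 and from 501 over 677 to 919 in SI20. In major clones it ran from 371 over 564 to 693 and from 466 over 632 to 849, so the segments overlapped in both. In the male mouse the 4 minor clones of SI10 lay at 398 to 486, below the 6 of SI20 at 581 to 919, whereas in the female mouse they overlapped. In undivided tumours the *Smad6* difference was -0.15 ± 0.21.

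The other members had log2 differences between segments of -0.36 to 0.14 in undivided and of -0.35 to 0.00 in divided tumours, 9 of the 10 being negative in the latter. The 4 libraries of the 2 SI30 tumours held 773 to 1296 normalised counts of *Id2* and 2232 to 3235 of *Id3*. Their lowest values of *Id2* and *Id3* were also the lowest over all 63 libraries.

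Whether the clone difference depended on the segment, and whether the segment difference depended on the mouse, was tested directly. For the first, 0 of 16436 genes passed (0%; 667 under an unadjusted 0.05), and 1 of the 10 stood under an unadjusted 0.05: *Id2*, with a contrast of 0.41 ± 0.19 (SI10 minus SI20; adjusted P = 0.998, limma). In minor clones of the tumours tested *Id2* ran from 1111 over 1269 to 1979 in SI10 and from 1034 over 1837 to 2322 in SI20, and in major clones from 1165 over 1484 to 2228 and from 1210.1 over 1387 to 2082. For the second, 0 of 16511 genes passed (0%; 870 under an unadjusted 0.05), and 1 of the 10 stood under it, *Bmp7*, with a contrast of -1.22 ± 0.42 (adjusted P = 0.829). Undivided tumours of the male mouse held 266 to 802 counts of *Bmp7* in SI10 and 513 to 1366 in SI20, a log2 difference of -0.79 ± 0.26. In the female mouse they held 463 to 1221 and 387 to 1022, a difference of 0.43 ± 0.31. In the same contrast all 9 fibroblast and all 7 macrophage markers had negative estimates, with medians of -1.91 and -1.28, and their part in the *Bmp7* contrast was not tested.

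Other genes of the pathway were taken from a list of 64 further ligands, antagonists, receptors, SMADs and targets, of which 53 or 54 were tested in each comparison and *Gdf5*, *Gdf7*, *Sostdc1*, *Sost* and *Hjv* were not analysed here. Of these, 0 passed in limma between major and minor clones, where 6 (11.3%) stood under an unadjusted 0.05 beside 22.4% of all genes. None passed between undivided tumours and major clones, with 12 (22.6%) under it beside 1973 of 16510 genes, nor between segments of undivided tumours, with 4 (7.41%) beside 7.62%, nor of divided tumours, with 10 (18.9%) beside 14.3%. Against minor clones 2 were lower in undivided tumours and none higher, a share of 3.77% beside 3.7% of all genes, and 9 (16.98%) stood under an unadjusted 0.05 beside 19.6%. A share this near that of all genes is no result about the list. The median log2 difference of the list was 0.07 between major and minor clones, beside 0.01 over all genes, and -0.18 between undivided tumours and major clones, beside -0.01.

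The 2 that passed were *Inhbb*, the gene of the inhibin and activin βB subunit, and *Fstl1*, a secreted follistatin-like protein gene. *Inhbb* ran from 24.6 over a median of 282 to 748 in undivided tumours and from 88.2 over 624 to 959 in minor clones, and fell by 1.10 on the log2 scale (SE 0.28; adjusted P = 0.0252, limma). *Fstl1* ran from 314 over 1247 to 4030 and from 1470 over 2503 to 3733, and was lower by a log2 difference of -0.89 ± 0.24 (adjusted P = 0.0309). Within single mice neither passed (adjusted P of 0.441 and 0.131 for *Inhbb*, 0.560 and 0.0635 for *Fstl1*), with -0.92 ± 0.23 and -1.26 ± 0.48 for *Inhbb* in the female and male mouse and -0.73 ± 0.34 and -1.04 ± 0.32 for *Fstl1*. *Fstl1* also missed the threshold without minor clone 26 or 27 of the male mouse or undivided tumour 5 of the female mouse (adjusted P up to 0.0541). In this test 2 of 9 endothelial markers were also lower in undivided tumours (list median -0.45), while 2 of 6 T cell markers (median 0.80), 2 of 7 enterocyte markers (median 0.57) and 1 of 7 epithelial markers (median 0.06) were higher, and their part was not tested.

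*Grem1*, which encodes the BMP antagonist gremlin 1 and is made by stromal cells around the crypt, had the largest estimate of the list between the clones. In major clones it ran from 0 over a median of 114 to 1387 normalised counts, and in minor clones from 0 over 18.97 to 1179. It was higher in the major clone in 15 of 20 tumours, with a log2 difference of 2.34 ± 0.59 (adjusted P = 0.0512, limma), which lay just outside the threshold. The difference was 0.82 in the female and 3.85 in the male mouse, where 1 tumour was listed at 0 in both clones and 2 others at 0 in the minor clone only. Under 5 of 12 alternatives *Grem1* passed, among them a pseudocount of 5 (adjusted P = 0.0471), quantile normalization (0.0422) and the male mouse alone (0.0479), and the adjusted P over all 12 ran from 0.0422 to 0.812. It also passed without tumour 19, 20, 27, 28 or 29 of the female or 19 of the male mouse (adjusted P from 0.0297), and since zeros enter the estimate, its size depends on the pseudocount (1.91 with a pseudocount of 5). Of 9 fibroblast markers 8 had positive estimates in this comparison (median 0.60), with 7 of the 9 at an unadjusted P under 0.05 and none passing. All 6 smooth muscle markers had positive estimates too (median 0.63), with 5 under an unadjusted 0.05 and none passing. Endothelial markers had 4 of 9 positive (median -0.06). The part of these markers in the *Grem1* values was not tested.

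**Figure D5:**
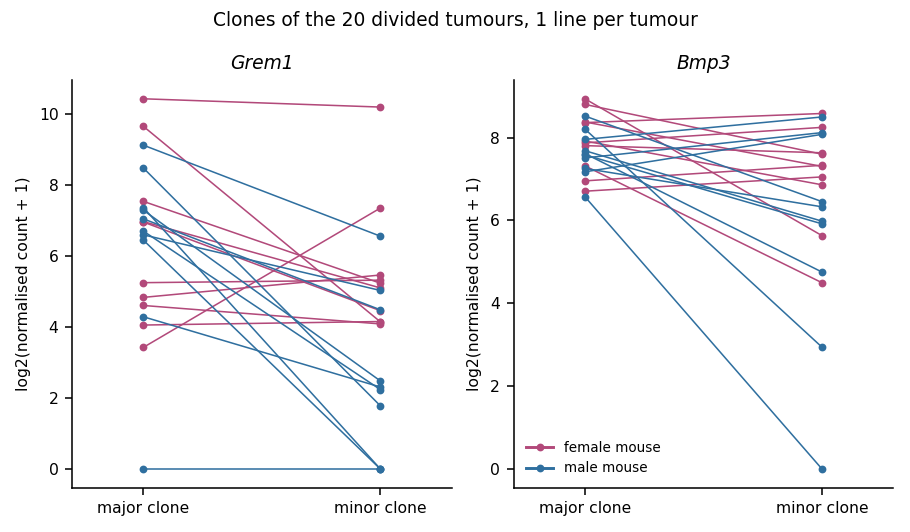
The antagonist gene *Grem1* and the ligand gene *Bmp3* in the major and minor clone of each divided tumour, as log2(normalised count + 1); each line is 1 tumour (female mouse in pink, male mouse in blue). *Grem1* is higher in the major clone in 15 of 20 tumours and *Bmp3* in 13.

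*Bmp3*, an atypical ligand that counteracts BMP signalling, ran from 94.3 over 214 to 489 in major clones and from 0 over 123 to 382 in minor clones, with a log2 difference of 1.37 ± 0.41 (adjusted P = 0.0725, limma). It was higher in the major clone in 13 of 20 tumours. The largest negative estimates between the clones belonged to the homeobox targets *Msx1* (-0.34 ± 0.18) and *Msx2* (-0.29 ± 0.20), neither passing. In undivided tumours *Grem1* had a log2 difference of -2.69 ± 0.89 from major clones (adjusted P = 0.279, limma), where the 9 fibroblast markers all had negative estimates as well. *Msx2* had -1.44 ± 0.56 from major and -1.73 ± 0.56 from minor clones (adjusted P = 0.340 and 0.0688, limma), the latter passing without minor clone 19 or undivided tumour 3 or 8 of the female or undivided tumour 6 of the male mouse (adjusted P from 0.0295). *Msx1* went the other way, with 0.68 ± 0.31 from major and 0.33 ± 0.28 from minor clones, so the *Msx* genes differed in sign. The ligand *Bmp8a* had 0.20 ± 0.30 and 0.35 ± 0.27. Between segments *Grem1* had -2.001 ± 1.33 in undivided and -1.28 ± 0.90 in divided tumours, and *Bmp3* had -1.86 ± 0.53 in undivided tumours. The largest positive estimates there were small beside their errors, at 0.42 ± 0.41 for *Gdf15* and 0.39 ± 0.77 for the antagonist *Nog* in undivided, and 0.66 ± 0.81 for the antagonist *Chrdl1* and 0.40 ± 0.35 for *Msx1* in divided tumours.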

How the data were processed

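Libraries were made from polyadenylated RNA with a strand-marking kit and sequenced as paired ends. The study's notes name FastQC 0.11.9, Trimmomatic 0.39, STAR 2.7.7a, Picard 2.27.3 and Salmon 1.9.0, with genome build GRCm39 and Gencode release M30. The deposited values are a signal: normalised counts that the authors made from Salmon estimates, their notes naming DESeq2, so they are not whole and the read depth of a library is unknown. Whether counting used the strand is not given in the sources used here, and exons of genes on the other strand overlap those of 7 of the 10 members. The values of a library summed to between 26140227 and 45909885. Major and minor classes came from the study's own listing of clones by sample name. Of the genes, 678 carried no symbol.

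Values were taken as log2(value + 1), which understates differences of low genes. Genes whose mean normalised count reached 10 in a comparison entered limma 3.58.1 (empirical Bayes with trend) in R 4.3.3, adjusted by Benjamini-Hochberg over all genes tested at a threshold of 0.05, two-sided. The tumour was a block between clones, as in the study, since the 2 clones of a tumour share their number, tumour and mouse; the mouse was a covariate otherwise. The sign-flipping permutation test of single genes drew 100000 resamples. Because the values are not counts, limma stood in for DESeq2. The fits were tested on simulated data. Correlations used values centred on class and mouse, and those of clone differences were chosen after the data were seen. Exon lengths and positions were taken from Gencode M39 on GRCm39, a later release than the authors used. The members and the lists were chosen with earlier results of these data known. Named genes were the 10 members; of the list, each that passed in any of 5 comparisons and the 2 largest rises and falls in each; and the 3 genes most like each member. A few genes that this rule names are not reported here.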

Additional observations from a re-analysis of the deposited data

How the results depend on the processing

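None of the 10 genes was called under any of the other settings, and of 640 log2 differences under those settings 593 kept their sign. That count includes settings in which the sign could not change. A different filter, no trend, no block for the pairing and the permutation test all leave the estimate itself as it was. On leaving out single libraries the number called against minor clones ran from 0 to 1, the 1 being *Bmp7*. Without the tumour as a block for the pairing of clones, 0 of the 10 and 0 of all genes passed, as against 188 of all genes with it. Those 188 became 85 without a filter, 89 without a trend, 366 after quantile normalization, 292 with 1 sum, 0 and 33 in the female and male mouse alone, 42 without the tumour of 2 segment labels, 33 in SI10 and SI20 only, and 25 to 859 without 1 tumour. The 610 against minor clones became 0 in the female mouse, 367 with the segment as a covariate, 325 in SI10 and SI20 only, and 274 to 959 without 1 library; the 28 and 46 between segments ran from 0 to 53 and from 0 to 215. Scaling to 1 sum moved the median of all genes to -0.10 against major clones, -0.11 against minor clones and -0.11 between segments of undivided tumours. After quantile normalization, the sign changed for SI10 minus SI20 in undivided *Bmp2* 0.012, and for undivided minus minor *Bmpr2* -0.044, and for undivided minus major *Id1* -0.015, and for SI10 minus SI20 in divided *Id3* 0.042. In the female mouse alone, the sign changed for SI10 minus SI20 in undivided *Bmp2* 0.26, *Bmp7* 0.43, *Grem1* 0.29, *Id3* 0.013, *Smad6* 0.066, and for major minus minor *Bmp2* -0.011, *Bmpr2* -0.094, and for undivided minus major *Bmp2* 0.16, *Bmp4* 0.62, *Bmpr2* 0.0069, *Smad6* 0.17, and for SI10 minus SI20 in divided *Bmp4* 0.015, *Id1* 0.019, and for undivided minus minor *Bmpr2* -0.087, *Id1* 0.21, *Id3* 0.042, *Smad6* 0.075, *Smad7* 0.054. With libraries scaled to 1 sum, the sign changed for undivided minus minor *Bmp2* -0.0034, *Bmpr2* -0.086, *Id2* -0.056, and for SI10 minus SI20 in divided *Bmpr1a* -0.016, and for undivided minus major *Id1* -0.088, *Id2* -0.0035, *Id3* -0.031. In the male mouse alone, the sign changed for major minus minor *Bmp4* 0.54, *Smad6* 0.047, and for SI10 minus SI20 in divided *Bmpr1a* -0.00077, *Id3* 0.023, and for SI10 minus SI20 in undivided *Gdf15* -0.066, and for undivided minus major *Id1* -0.27, *Id2* -0.031, *Id3* -1.1e-05, and for undivided minus minor *Id2* -0.061. With SI10 and SI20 tumours only, the sign changed for major minus minor *Bmp4* 0.13, *Smad6* 0.0014. With minor clones only, the sign changed for SI10 minus SI20 in divided *Bmpr1a* -0.033. With the segment as a covariate, the sign changed for undivided minus major *Id1* -0.0080, and for undivided minus minor *Id2* -0.023. With SI10 and SI20 libraries only, the sign changed for undivided minus major *Id1* -0.027, and for undivided minus minor *Id2* -0.027. With undivided tumours 1 to 10 of each mouse only, the sign changed for undivided minus minor *Id1* 0.058. With major clones only, the sign changed for SI10 minus SI20 in divided *Id2* 0.062, *Id3* 0.079, *Msx1* -0.021. Without the tumour with 2 segment labels, the sign changed for major minus minor *Smad6* 0.0025. Leaving out 1 tumour or library at a time, the sign changed within these ranges: *Bmp2* SI10 minus SI20 in undivided -0.17 to 0.10, *Bmp2* undivided minus minor -0.0023 to 0.15, *Bmp4* SI10 minus SI20 in divided -0.33 to 0.046, *Bmp4* major minus minor -0.18 to 0.10, *Bmpr1a* SI10 minus SI20 in divided -0.054 to 0.078, *Bmpr2* undivided minus minor -0.026 to 0.049, *Id1* undivided minus major -0.024 to 0.056, *Id2* undivided minus minor -0.010 to 0.069, *Id3* SI10 minus SI20 in divided -0.055 to 0.050, *Id3* SI10 minus SI20 in undivided -0.085 to 0.045, *Smad6* major minus minor -0.062 to 0.0077. The cause of these changes was not tested. The depth of the libraries is unknown, so no counting interval is given. The planned comparison of protein sequences was not run.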
